A study of Homo sapiens with 6 samples.

Results

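The cytosolic ribosomal proteins are the protein components of the 60S and 40S subunits of the ribosome. Their genes were taken by symbol from the deposited table, as the rows named RPL or RPS followed by a number and an optional A, X or L with further digits, together with RPLP0, RPLP1, RPLP2 and RPSA. That gave 84 of the 60670 genes in the table, 52 of the large and 32 of the small subunit, on 21 chromosomes. A ribosomal-protein orthology name stood beside 83 of the 84 in the table, and RPL7L1 had none. The cells were Ishikawa, an established human line from an adenocarcinoma of the endometrium. They had received penfluridol at 5 µM (3 libraries) or the solvent DMSO (3 libraries). Penfluridol is an antipsychotic of the diphenylbutylpiperidine class, and both groups are the same line in the same medium. The labels name no length of exposure.

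A ribosome needs 1 copy of nearly every one of these proteins, and cells make them in matched amounts. Their mRNAs are short, abundant and stable, and most begin with a cytosine followed by a run of pyrimidines, the 5′ terminal oligopyrimidine (TOP) motif. Through this motif the kinase complex mTORC1 and the RNA-binding protein LARP1 set how much of the mRNA is translated, and LARP1 also protects it from decay. Several members also act outside the ribosome: RPL5 and RPL11 bind the p53 ligase MDM2 when ribosome assembly fails, and RPS27A is made as a fusion with ubiquitin.

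The start of the RefSeq transcript was available for 67 of the 84 members (build GRCh38.p14). A TOP start, here a C at the first base followed by at least 4 pyrimidines, was present in 47 of these 67 (70.1%), against 1404 of 27305 genes in the same table (5.14%). It was found in 29 of 42 large-subunit and 18 of 25 small-subunit members. The sequences below run from 12 bases before the annotated start to 18 bases from it, 5′ to 3′ on the gene's strand, with the pyrimidine run at the start in capitals. They are shown because RPL41, RPLP0, RPL13A and RPS27, among the most abundant members, carry the motif, while RPS26 and the minor copies RPL26L1 and RPS27L, which figure in the results, have no such run at the annotated start.
RPL41, chr12:56116621-56116650, plus strand: aacttcgcctttCTCTCggccttagcgcca
RPL13A, chr19:49487596-49487625, plus strand: caaaacctcctcCTTTTCCaagcggctgcc
RPLP0, chr12:120201094-120201123, minus strand: cgggcgcgaggcCCTTCTCTCgccaggcgt
RPS27, chr1:153990750-153990779, plus strand: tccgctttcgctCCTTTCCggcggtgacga
RPS6, chr9:19380219-19380248, minus strand: cggaagttggccCTCTTTTCCgtggcgcct
RPS26, chr12:56041906-56041935, plus strand: acacataacctcgattttcttccgccatcc
RPL26, chr17:8383176-8383205, minus strand: cagcgtgtagttCTCTTCCCTTTTgcggcc
RPL26L1, chr5:172958717-172958746, plus strand: cttccaggggtcggcgaacgaaacgcggag
RPL22, chr1:6199578-6199607, minus strand: ttcgctcacctcCCTTTCTaactccgctgc
RPL22L1, chr3:170870178-170870207, minus strand: ggccgtagcttcCTCTCTgctctcgcggcc
RPS27L, chr15:63157460-63157489, minus strand: ttgatgccgagcgcagatcgcttgcagctt
In RPS26 a pyrimidine-rich stretch lies a few bases inside the annotated start. A match is a description of these letters at an annotated start, and RPL26L1 has 2 annotated starts, of which 1 is shown.

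Expression was given as TPM, transcript abundance per transcript length scaled to a fixed total in each library, and library totals lay between 994165 and 997207. TPM keeps no record of reads, so sequencing depth is unknown and counting error cannot be given. Nothing in the labels says that the libraries of a group are separate cultures, and p-values therefore reflect a spread between libraries that could be technical. All 7 epithelial and endometrial markers were expressed (mean of 1 TPM or more), and they summed to 2414 to 2695 TPM with penfluridol and 3524 to 4366 TPM with DMSO. Most of the sum was KRT8, with means of 1109 TPM with penfluridol and 1988 TPM with DMSO, and KRT18, with 1045 and 1492 TPM. On the log2 scale 3 of the 7 were higher with penfluridol and 4 lower. The summed markers of stroma were at 1.81 to 4.5 TPM with penfluridol and 2.32 to 2.73 TPM with DMSO. Those of endothelium were at 0.2 to 0.4 TPM with penfluridol and 0.29 to 0.88 TPM with DMSO. Blood markers summed to 4.4 to 6.66 TPM with penfluridol and 0.39 to 0.92 TPM with DMSO, mostly CD68, a lysosomal protein, while CD3E, DCN, LUM and PDGFRB were listed at 0. The part of these markers in the results below was not tested.

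The library DMSO 3 often lay near the penfluridol libraries in this family, and no other library was examined in this way. Over all genes tested, Pearson's correlation of DMSO 3 was 0.956 and 0.93 with DMSO 1 and 2. With penfluridol 1, 2 and 3 it was 0.955, 0.955 and 0.945. For 67 of the 82 members tested (81.7%) the level in DMSO 3 was nearer to the penfluridol mean than to the mean of DMSO 1 and DMSO 2, against 55.7% of all genes tested, and for 48 members it lay inside the penfluridol range. Results are therefore given with and without DMSO 3 where it decides them.

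The ribosomal-protein mRNAs made up a large share of each transcriptome, and the treated and control libraries overlapped. Their share of all TPM was 35.0, 34.8 and 33.9% in penfluridol 1, 2 and 3, against 31.4, 34.1 and 33.3% in DMSO 1, 2 and 3. The share averaged 34.6 ± 0.58% with penfluridol and 33.0 ± 1.40% with DMSO (SD, n = 3 each). DMSO 2 lay above penfluridol 3, so the difference was within the spread between libraries. The large subunit held 19.36, 18.97 and 18.71% with penfluridol and 17.47, 18.77 and 18.43% with DMSO. The small subunit held 15.7, 15.9 and 15.2% with penfluridol and 14.0, 15.4 and 14.9% with DMSO. The summed level of the large over that of the small subunit was 1.24, 1.20 and 1.23 with penfluridol, against 1.25, 1.22 and 1.24 with DMSO, so the balance of the subunits also overlapped. In bulk RNA a changed level per cell cannot be told apart from a changed mixture of cells, and a share does not give the amount of ribosomal-protein mRNA per cell.

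**Figure D1:**
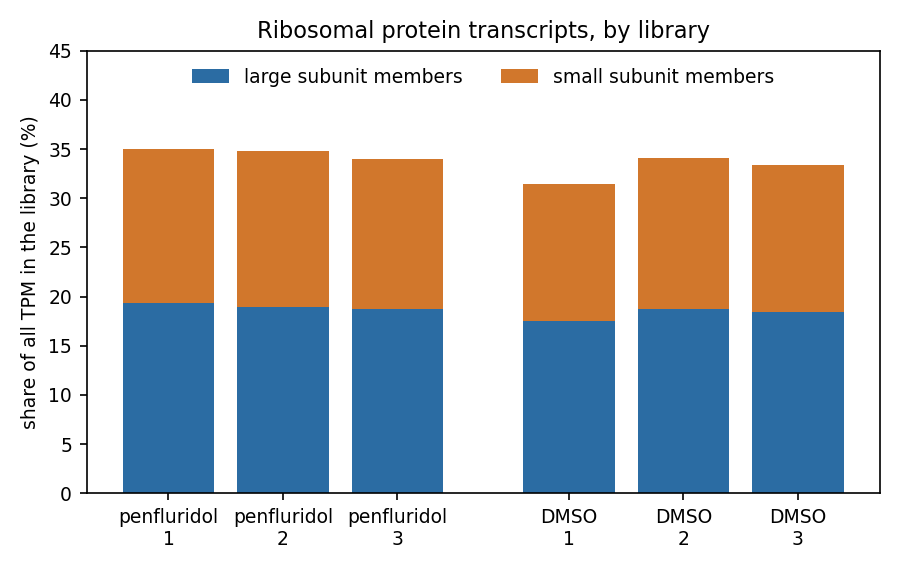
Share of all TPM held by the ribosomal-protein genes in each library, by subunit (y axis, percent), with penfluridol left of DMSO. The total lies between 33.9 and 35.0% with penfluridol and between 31.4 and 34.1% with DMSO, so the groups overlap.

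Across the single genes the family moved little. Of the 82 members with a mean TPM of 1 or more, penfluridol was called higher in 0 and lower in 3. A call is an adjusted p under 0.05 from limma on log2(TPM + 1) with Benjamini-Hochberg adjustment over all 12201 genes tested. At an unadjusted p under 0.05, 7 members were higher and 9 lower, against 18.9% and 14.2% of all genes. Over all genes, 9.75% were called higher and 3.48% lower, and 3 of 82 members is 3.66%. Of the calls over all genes 73.7% were higher, against 58.0% with median-of-ratios scaling and 52.9% with a correction for transcript GC content and length. The calls were 2 of 50 large-subunit members, RPL23A and RPL26L1, and 1 of 32 small-subunit members, RPS26. RPL10L, the testis copy of RPL10, and RPL3L, the striated-muscle copy of RPL3, did not reach the filter: RPL10L was listed at 0 in all 6 libraries, and RPL3L was at 0.02, 0.33 and 0.15 TPM with penfluridol and 0.43, 0.61 and 0.16 TPM with DMSO.

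The median log2 fold change (penfluridol minus DMSO) was 0.01 over the 82 members, 0.01 over the large and 0.00 over the small subunit, against -0.04 over all genes tested. The values ran from -1.32 for RPL7 to 0.55 for RPL18, with quartiles of -0.28 and 0.23. Within ±0.5 on the log2 scale lay 70 of 82 members (85.4%), against 58.2% of all genes tested and 68.2% of the other genes that averaged 100 TPM or more. Positive values numbered 42 and negative values 40. In what follows, values in parentheses are log2 fold changes in this direction with limma's adjusted p.

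The groups did not overlap for 20 members. In 14 of them every penfluridol library lay above every DMSO library, which is 17.1% of the members, against 23.3% of all genes. In 6 every penfluridol library lay below, which is 7.32% of the members, against 13.6% of all genes. The 6 below were RPL26L1, RPS26, RPS3A, RPL23A, RPL39 and RPL10A. Without DMSO 3, 10 members were called higher (12.2%, against 13.9% of all genes) and 14 lower (17.1%, against 18.5%). The higher set in that fit included RPL13, RPL13A, RPL18, RPL27A, RPL28, RPS3, RPS16, RPS19 and RPS28. The lower set held RPL6, RPL7, RPL17, RPL22L1, RPL23A, RPL26L1, RPL39, RPS3A, RPS7, RPS23, RPS24, RPS26, RPS27A and RPS27L. Without any other single library the members called lower were 1, RPS26, and 0 were called higher. With the GC and length correction and without DMSO 3, the members called higher were instead RPL9, RPL32, RPL35A and RPL37A, all outside the higher set above. Those called lower were RPL7, RPL23A and RPL26L1, and RPL10A, which was not in the lower set above. In that fit 1394 of 12201 genes were called lower, and 51.1% of all calls were higher.

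**Figure D2:**
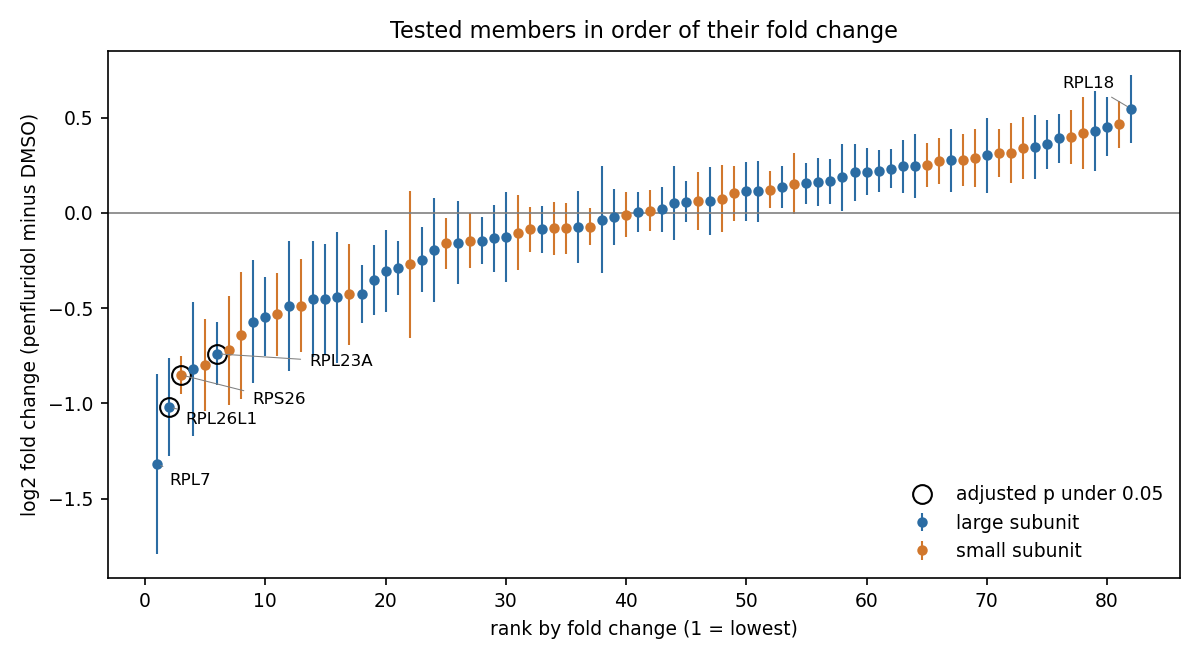
Log2 fold change (penfluridol minus DMSO, y axis) with its standard error for each tested member, ranked from lowest to highest along the x axis and coloured by subunit, with called members circled. Most points lie within ±0.5, the 3 called members lie below 0 at -1.02 (RPL26L1), -0.85 (RPS26) and -0.74 (RPL23A), and RPL18 and RPL7 mark the ends at 0.55 and -1.32.

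RPS26, a small-subunit protein at the mRNA exit channel, had the smallest adjusted p of the members. It stood at 620, 629 and 582 TPM with penfluridol, against 1064, 1060 and 1184 TPM with DMSO. The DMSO libraries were all above the penfluridol ones, DMSO 3 being the highest of the 6. The mean was 611 ± 25.03 TPM with penfluridol and 1103 ± 70.2 TPM with DMSO (SD, n = 3 each). On the log2 scale this is a difference of -0.85 with an SE of 0.10 and a limma adjusted p of 0.0041. The gene lies at chr12:56041351-56044697 on the plus strand (GRCh38, GENCODE 29). Relative to the median of the other small-subunit members in the same library, RPS26 was at 14.2, 13.8 and 12.8% with penfluridol and 27.0, 24.5 and 25.8% with DMSO. The call held without each library in turn, with log2 fold changes of -0.88 to -0.80 and adjusted p from 0.00679 to 0.043. It was lost after correction for transcript GC content and length (-0.61, adjusted p 0.1), and kept when that correction used the principal transcript (-0.73, adjusted p 0.0361).

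Among the fits that leave out 1 library, RPL23A and RPL26L1 were called lower in the one without DMSO 3 and in no other. RPL23A, a large-subunit protein at the exit of the peptide tunnel, had 438, 535 and 543 TPM with penfluridol, against 841, 1020 and 694 TPM with DMSO. It averaged 505 ± 58.2 TPM with penfluridol and 851 ± 163 TPM with DMSO (SD, n = 3 each). Its log2 difference was -0.74 with an SE of 0.17 (limma adjusted p 0.0305). The gene is at chr17:28719393-28724359, plus strand. Its pseudogene RPL23AP42, at chr3:161429127-161429597, held 1047, 1035 and 1402 TPM with penfluridol and 1599, 1605 and 1157 TPM with DMSO, more than RPL23A itself, so how reads were divided between them is uncertain. With the pseudogenes added to RPL23A the log2 fold change was -0.46 and the call was lost (adjusted p 0.112). Leaving out one library gave adjusted p from 0.0113 without DMSO 3 to 0.12 without DMSO 1.

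RPL26L1, a minor copy of RPL26 that differs from it by few residues, is expressed at a low level. It had 44.2, 57.3 and 74.7 TPM with penfluridol, against 121, 154 and 86.9 TPM with DMSO. Penfluridol averaged 58.7 ± 15.3 TPM and DMSO 121 ± 33.8 TPM (SD, n = 3 each). Its log2 difference was -1.02 with an SE of 0.26 (limma adjusted p 0.0442). The gene lies at chr5:172958729-172969771, plus strand. Leaving out one library gave adjusted p from 0.0153 without DMSO 3 to 0.155 without DMSO 1. RPL26 itself, at 4738, 3673 and 3925 TPM with penfluridol and 4690, 5993 and 3167 TPM with DMSO, had a log2 fold change of -0.13 (adjusted p 0.728), a direction that reversed to 0.33 after the GC and length correction.

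**Figure D3:**
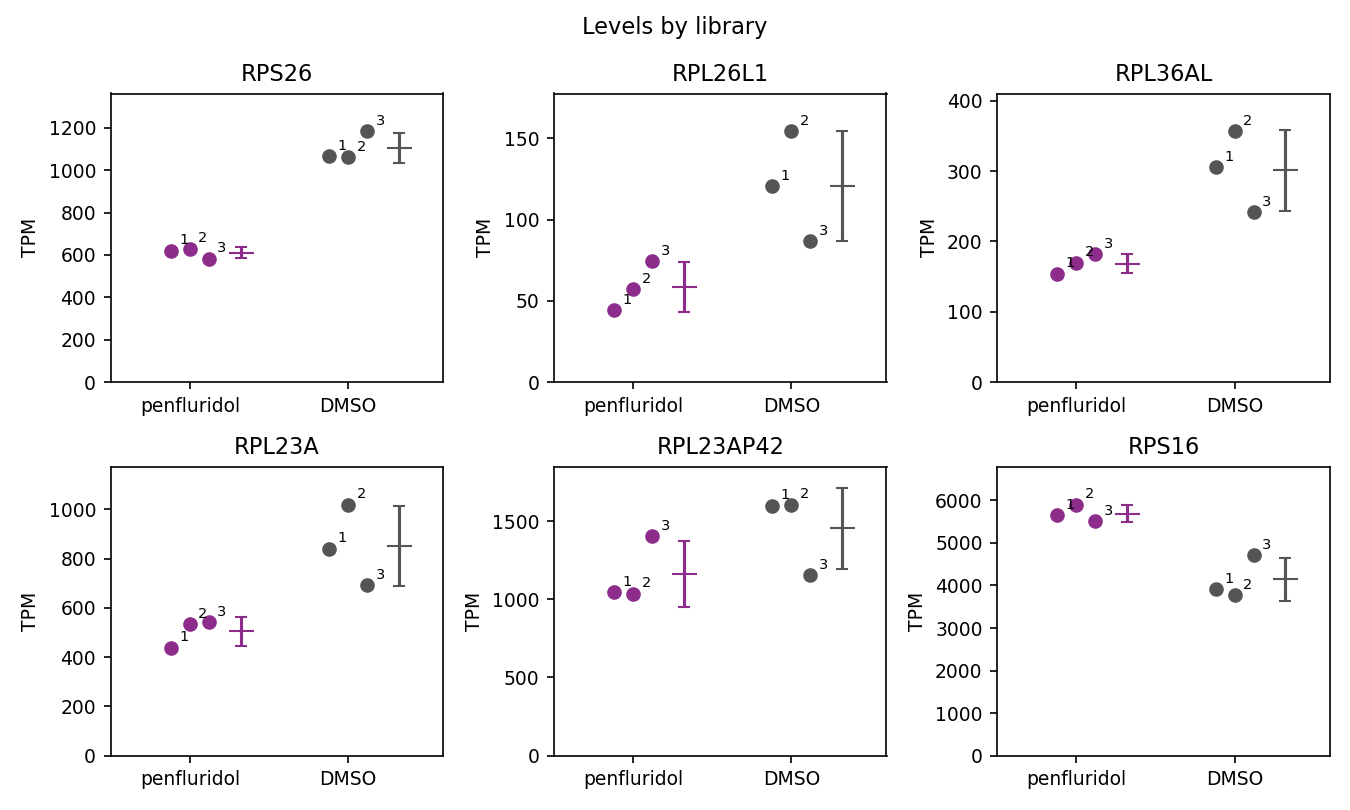
TPM of RPS26, RPL26L1, RPL36AL, RPL23A, its pseudogene RPL23AP42 and RPS16 in each library (points numbered by replicate, y axis from 0), penfluridol left of DMSO, with the mean and SD of the 3 libraries beside them. RPS26 is at 620, 629 and 582 TPM with penfluridol and 1064, 1060 and 1184 TPM with DMSO, and RPL23A, RPL26L1 and RPL36AL are also lower with penfluridol without overlap, while RPL23AP42 overlaps.

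RPL36AL is a copy of RPL36A outside the naming pattern. It fell to 154, 170 and 182 TPM with penfluridol, against 305, 357 and 241 TPM with DMSO, with a log2 difference of -0.82 and an SE of 0.16 (limma adjusted p 0.0203). The call was lost without any single library other than DMSO 2 or DMSO 3 and after the GC and length correction, where the log2 difference was -0.21. RPL36A was at 1448, 1260 and 1217 TPM with penfluridol and 1403, 1745 and 1058 TPM with DMSO (-0.07, adjusted p 0.804). FAU, which carries RPS30, and RACK1, a scaffold on the small subunit, had log2 fold changes of 0.21 and 0.13 and passed no test, and both signs turned negative after the GC correction.

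The other paralogs can be set, within each library, against the genes taken as their main copies. RPL22L1 stood at 115, 105 and 124% of RPL22 with penfluridol, against 223, 261 and 158% with DMSO. RPL22L1 was thus above RPL22 in every library, though the pseudogenes of RPL22 summed to 118% of its level. RPS27L, a p53-responsive copy, stood at 0.31, 0.26 and 0.34% of RPS27 with penfluridol and 0.58, 0.68 and 0.40% with DMSO. RPL26L1 stood at 0.93, 1.56 and 1.90% of RPL26 with penfluridol and 2.57, 2.58 and 2.75% with DMSO. These 3 ratios were lower with penfluridol in every library. Higher with penfluridol in every library were RPL39L as a share of RPL39, at 5.54, 5.60 and 5.16% with penfluridol against 2.95, 2.43 and 5.10% with DMSO, and RPL7L1 as a share of RPL7, at 5.02, 5.87 and 5.19% with penfluridol against 2.49, 2.35 and 4.42% with DMSO. For each of the 5 pairs the exact two-sided permutation test over libraries gave p = 0.1, adjusted p = 0.1 over the pairs, which is the smallest that 3 against 3 can give, so the test cannot reach 0.05. Paralog and main copy can differ in GC content. After the GC and length correction the log2 fold change of the paralog minus that of its main copy was -0.11 for RPS27L, -0.40 for RPL22L1, -1.17 for RPL26L1, 0.10 for RPL39L and 0.68 for RPL7L1. Without it these differences were -0.82, -0.87, -0.89, 0.71 and 0.87 in the same order. This comparison was chosen after seeing the data. How often the ratios of other gene pairs separate in this way is not given here, nor is the separation of these ratios after correction.

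**Figure D4:**
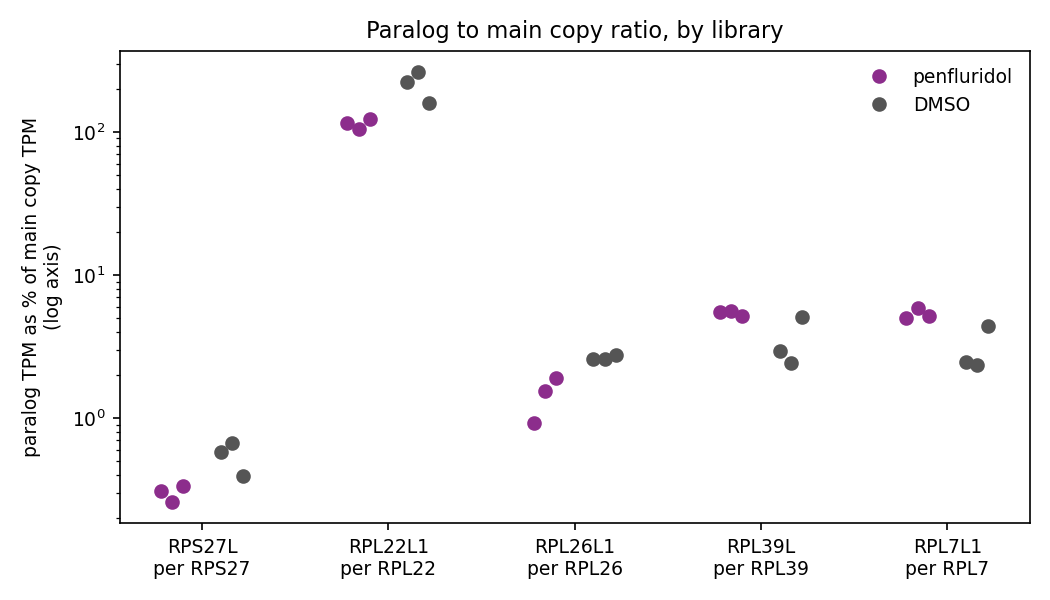
Level of each paralog as a percentage of the gene taken as its main copy, by library (y axis, log scale), penfluridol left of DMSO. RPL22L1 lies above RPL22 in every library. The values carry no GC correction, and the groups do not overlap in any of the 5 pairs: penfluridol is the lower one for RPS27L, RPL22L1 and RPL26L1 and the higher one for RPL39L and RPL7L1. How often other gene pairs separate is not given.

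In the paralogs' own levels, RPL22L1 had 402, 297 and 406 TPM with penfluridol and 721, 1012 and 367 TPM with DMSO (-0.82, adjusted p 0.155). Without DMSO 3 it was called lower, at an adjusted p of 0.0114, while after the GC and length correction it was at -0.11 (adjusted p 0.667). RPS27L, at 36.0, 32.6 and 45.6 TPM with penfluridol and 66.2, 91.1 and 40.9 TPM with DMSO, had -0.72 (adjusted p 0.133), and -0.10 after that correction. RPL39L was at 179, 165 and 171 TPM with penfluridol and 138, 148 and 175 TPM with DMSO (0.16, adjusted p 0.362), while RPL39 was at 3224, 2940 and 3311 TPM with penfluridol against 4660, 6096 and 3434 TPM with DMSO (-0.55, adjusted p 0.121, 0.07 after the GC correction). RPL7 had 483, 489 and 818 TPM with penfluridol, against 1890, 2387 and 664 TPM with DMSO, with a log2 difference of -1.32 and an SE of 0.47 (adjusted p 0.107). DMSO 3 was inside the penfluridol range for RPL7, and RPL7L1 ran from 24.3 to 42.5 TPM with penfluridol and from 29.4 to 56.1 TPM with DMSO.

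The abundant members gave mixed directions, and none passed the test. RPL41, a very short protein of the large subunit, had the highest mean of all genes tested, with 14019, 16195 and 18776 TPM with penfluridol and 18250, 22610 and 17198 TPM with DMSO (-0.25, adjusted p 0.335). RPS2, at the mRNA entry, had 21693, 19324 and 15776 TPM with penfluridol and 14029, 13854 and 16713 TPM with DMSO (0.34, adjusted p 0.187). RPS27 had a log2 fold change of 0.10, which turned to -0.03 with the GC correction without DMSO 3, RPS18 of 0.25 and RPS21 of 0.27. RPL35, at 11350, 9915 and 7746 TPM with penfluridol and 8110, 8956 and 10562 TPM with DMSO, had 0.06, a sign that turned negative after the GC correction. Of the main copies with a silent or nearly silent paralog, RPL10 had 0.14 (adjusted p 0.4; -0.02 with the GC correction on the principal transcript) and RPL3, without overlap, 0.23 (adjusted p 0.162). RPL13A, which also has a role in silencing translation in interferon-treated myeloid cells, was at 9778, 9504 and 8453 TPM with penfluridol and 6753, 6791 and 8124 TPM with DMSO, with no overlap (0.36, adjusted p 0.111). It was called without DMSO 3, at 0.0418, but not with the GC and length correction in the same libraries (0.206, adjusted p 0.412).

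The stalk of the large subunit, which binds elongation factors, is made of RPLP0, RPLP1 and RPLP2, and none of them passed the test. RPLP1 was at 3198, 3216 and 3217 TPM with penfluridol, against 2584, 2561 and 3188 TPM with DMSO (0.22, adjusted p 0.248). RPLP2 was at 5754, 5946 and 5911 TPM with penfluridol against 5005, 4722 and 5420 TPM with DMSO (0.22, adjusted p 0.198), and this sign reversed when the GC correction used the principal transcript. RPLP0, the stalk base, had 18563, 16791 and 13388 TPM with penfluridol and 13486, 12575 and 16699 TPM with DMSO (0.19, adjusted p 0.474), with DMSO 1 and DMSO 3 both above penfluridol 3.

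The 5S ribonucleoprotein pair, RPL5 and RPL11, passed no test. RPL5 had 534, 627 and 972 TPM with penfluridol and 1045, 1256 and 635 TPM with DMSO (-0.45, adjusted p 0.327), and RPL11 had 719, 993 and 1491 TPM with penfluridol against 1234, 1364 and 950 TPM with DMSO (-0.20, adjusted p 0.631). In both genes penfluridol 3 was the highest of its group and DMSO 3 the lowest of its group, and the groups overlapped. The sign for RPL5 turned positive after GC and length correction, and that for RPL11 without penfluridol 1.

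Among small-subunit members with known extra roles, RPS6, the substrate of S6 kinase, had 502, 629 and 852 TPM with penfluridol and 956, 1103 and 621 TPM with DMSO (-0.43, adjusted p 0.287, 0.18 after the GC correction). RPS27A had 1436, 1452 and 1856 TPM with penfluridol and 2287, 3014 and 1546 TPM with DMSO (-0.49, adjusted p 0.206). RPSA, also known as the laminin receptor, had 8848, 8431 and 7160 TPM with penfluridol and 6128, 5814 and 7784 TPM with DMSO (0.32, adjusted p 0.200). RPS3, which has a second role in DNA repair, had 5219, 5013 and 4768 TPM with penfluridol and 3533, 3375 and 4565 TPM with DMSO, with no overlap (0.40, adjusted p 0.107).

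RPS16, RPS3A and RPL18 lay just outside the threshold and were picked after their values were seen. RPS16 had 5657, 5899 and 5510 TPM with penfluridol, against 3919, 3781 and 4720 TPM with DMSO, with a log2 difference of 0.46 and an SE of 0.12 (adjusted p 0.0523). After the GC and length correction RPS16 was at 0.304 (adjusted p 0.215). RPS3A, a small-subunit protein, had 1871, 2057 and 2884 TPM with penfluridol and 3916, 5104 and 2923 TPM with DMSO, without overlap (-0.80, adjusted p 0.0736), and it was called lower with median-of-ratios scaling and was at -0.25 after the GC and length correction. RPL18 had 5713, 5328 and 4288 TPM with penfluridol and 3294, 2971 and 4280 TPM with DMSO (0.55, adjusted p 0.0868). After the same correction RPL18 was at 0.295 (adjusted p 0.303).

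The fold change of a member went with its transcript GC content, here the median over all annotated transcripts of the gene. Across the 82 members the correlation of log2 fold change with transcript GC was 0.654 (Pearson) and 0.718 (Spearman), and across 12112 genes tested it was 0.519 and 0.602. These are across genes, which share libraries and are not independent replicates. Of the 41 members above the median GC, 33 had positive values, with a median of 0.22, and of the 41 at or below it 32 had negative ones, with a median of -0.20. The 12 members on chromosome 19 had a median GC of 57.3% and a median log2 fold change of 0.30, against 49.2% and -0.07 for the others. The correlation of each library's deviations with GC over members was 0.564, 0.725 and 0.00794 in penfluridol 1, 2 and 3, and -0.664, -0.769 and 0.622 in DMSO 1, 2 and 3. The first principal component of the members, 81.5% of their variance, put penfluridol 1, 2 and 3 at 0.304, 0.243 and -0.00214, and DMSO 1, 2 and 3 at -0.268, -0.413 and 0.136. With the GC and length correction 0 members were called higher, against 10% of all genes, and 3 lower, RPL10A, RPL23A and RPL26L1, against 8.92% of all genes. The median size of a member's log2 fold change was 0.184 with the correction, against 0.246 without it, and 56 of 82 became smaller. The correction takes out each library's trend with GC and length, so values that follow GC shrink by its construction. The same figures over all genes are not given here.

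**Figure D5:**
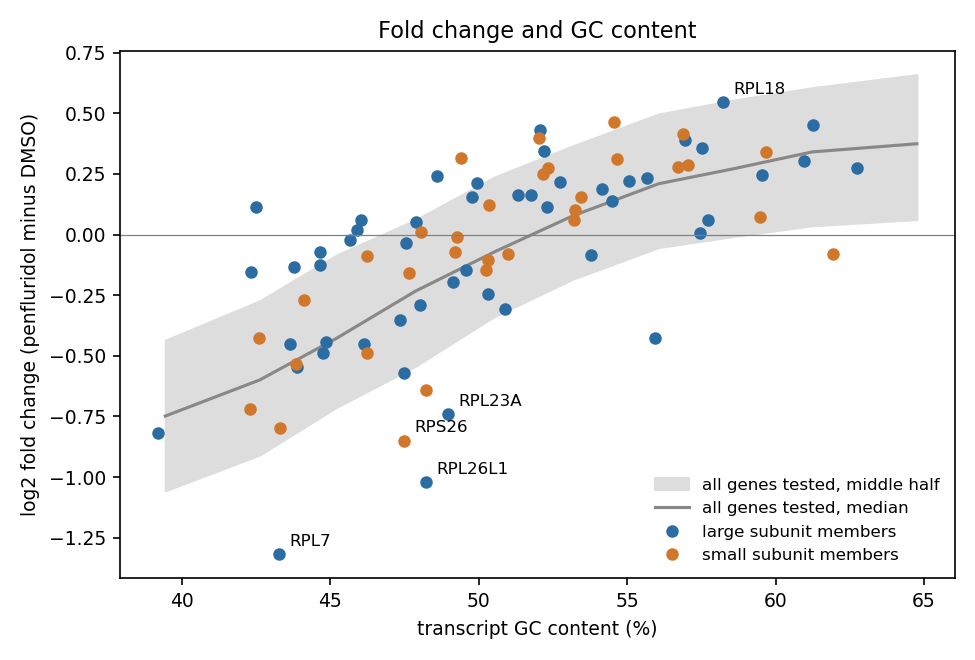
Log2 fold change (penfluridol minus DMSO, y axis) against transcript GC content (x axis, percent) for the 82 tested members, coloured by subunit, over the median and quartiles (grey) of all genes tested in 10 GC bins. Members at or below the median GC lie mostly below 0 and those above it mostly above 0, as the bins do, from -0.75 in the lowest to 0.37 in the highest.

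Between libraries of one group the median coefficient of variation over members was 11.8% with penfluridol and 15.4% with DMSO, and 61 of 82 members (74.4%) varied less with penfluridol, as did 60.7% of all genes tested. Over all genes tested it was 20.5% with penfluridol and 22.1% with DMSO. The members' median over DMSO 1 and 2 alone was 7.15%. That value rests on 2 libraries, and no other pair was computed to set beside it. As a description over the 6 libraries, Pearson's correlation of a member with the family median ran from -0.694 for RPS15 to 0.908 for RPL12.

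Ribosomal-protein genes have many processed pseudogenes, and the deposited table lists 1237 rows for those of the members, of which 376 were above 0 and 51 averaged 1 TPM or more. Pseudogenes summed to over 10% of the level of 6 members and under 1% for 76. RPS28P7 held 1458, 1447 and 1899 TPM with penfluridol and 1544, 1505 and 1568 TPM with DMSO, against RPS28 itself at 791, 776 and 735 TPM with penfluridol and 620, 542 and 754 TPM with DMSO. RPL39P3 fell to 933, 611 and 687 TPM with penfluridol, against 1221, 1220 and 1116 TPM with DMSO (-0.69, adjusted p 0.0363). Reads may be split between such copies, so these rows are uncertain. So are RPL21 and RPL22, whose pseudogenes hold a large share of their level, and RPS2, whose pseudogenes summed to 10.3% of its level.

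The 47 members with a TOP start had a median log2 fold change of 0.06 and 0 calls, and the 19 tested members with a known start and no TOP run had a median of -0.09 and 2 calls, both lower, RPS26 and RPL26L1. Over all genes 9.75% were called higher and 3.48% lower. The median transcript GC was 50.9% in the set with a TOP start and 48.2% in the set without, and the sets were not compared after GC correction. The class of RPS26 rests on its annotated start. Among 21 other TOP mRNAs, 20 were tested, 2 were called higher and 0 lower, against the same 9.75% and 3.48% of all genes, with a median of -0.25. The elongation factor EEF2 rose to 3024, 3242 and 3154 TPM with penfluridol, against 2239, 1940 and 2494 TPM with DMSO (0.50, adjusted p 0.0403), and EIF3F to 478, 493 and 512 TPM with penfluridol against 393, 327 and 352 TPM with DMSO (0.47, adjusted p 0.0312). COX7C, with 411, 544 and 773 TPM with penfluridol and 1048, 1338 and 837 TPM with DMSO, was not called (-0.92, adjusted p 0.0612). Both calls were lost when any 1 of penfluridol 1, 2 and 3 or DMSO 1 and 2 was left out, and EEF2 also lost its call after the GC correction (0.24, adjusted p 0.194). Without DMSO 3, 7 of the 20 tested mRNAs of this list were called lower and 3 higher, against 18.5% and 13.9% of all genes. With the GC and length correction in the same libraries, 3 were called lower and 2 higher. Over all genes in that fit 1394 were called lower, and 51.1% of the calls were higher. The median transcript GC was 46.2% in this list, against 51.8% over all genes tested.

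Of 16 genes of mTORC1 signalling and LARP1, 3 were called higher and 0 lower, with a median of 0.11, against 9.75% and 3.48% of all genes. They were SESN2, DDIT4 and EIF4EBP1, inhibitors of mTORC1 or of cap-dependent translation. SESN2 rose to 21.5, 20.4 and 25.7 TPM with penfluridol, against 6.74, 5.9 and 6.94 TPM with DMSO (1.64, SE 0.16, adjusted p 0.00227). DDIT4 was at 148, 161 and 131 TPM with penfluridol against 75, 73.7 and 61.8 TPM with DMSO (1.05, adjusted p 0.00489), and EIF4EBP1 at 967, 844 and 750 TPM with penfluridol against 433, 402 and 523 TPM with DMSO (0.91, adjusted p 0.0104). The EIF4EBP1 call was lost without penfluridol 2 and without DMSO 1. Without DMSO 3, 3 of the 16 genes were called lower and 4 higher, against 18.5% and 13.9% of all genes. MTOR, at 2.32, 3.16 and 4.16 TPM with penfluridol and 3.34, 5.62 and 1.83 TPM with DMSO, and LARP1, at 17.8, 21.3 and 37.1 TPM with penfluridol and 23.1, 32.1 and 15.9 TPM with DMSO, passed no test.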

How the data were processed

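RNA of Ishikawa cells was sequenced after 5 µM penfluridol or DMSO, in 3 libraries per group, grouped by the treatment in the labels. The authors deposited 1 table of TPM with 2 decimals. Its header names no unit, which was read from the nearly equal library totals. fastp, RSEM and the build GRCh38.p13 are named in the submitters' processing notes; versions, aligner and annotation were not given in the sources used here. Depth cannot be had from TPM. The table has 0 columns of other samples and 1 emptied line.

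The 12201 genes whose mean reached 1 TPM were tested on log2(TPM + 1), so fold changes of low genes are understated, with limma 3.58.1 in R 4.3.3 with a variance trend, an intercept and treatment, two-sided, with Benjamini-Hochberg adjustment over all genes tested and a call at an adjusted p under 0.05. The fit was tested on simulated data. Paralog ratios were tested with exact permutation in SciPy 1.17.1. Transcript GC and length were medians over all of a gene's transcripts in GENCODE 29, which 58452 gene IDs matched. The principal-transcript correction used the shortest transcript tagged as principal, or those medians where none was tagged. Starts came from RefSeq (GRCh38.p14). Members, lists and tests were chosen with earlier results of these data known. Genes were named by a rule: the 4 most abundant members of each subunit, called members, paralog pairs, members fixed for a role, ribosomal proteins outside the pattern and the 3 genes of smallest p in each other list; RPS16, RPL18, MTOR, LARP1, RPL36A and pseudogenes were named after their values were seen. Some genes are not reported here. Alternatives were other filters, pseudocounts, scalings, a GC and length correction, pseudogenes added, no variance trend, a replicate block and leaving out each library.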

Additional observations from a re-analysis of the deposited data

How the results depend on the processing

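The 3 calls among members were not equally stable. The RPS26 call was lost under the replicate block and under the GC and length correction, both with all libraries and without DMSO 3. Same-numbered libraries did not deviate together (r = -0.00807, -0.00607 and -0.348, none best with its own number). The labels name no batch shared by a number, and 3 such values cannot show that none was shared. With the replicate block 62 genes were called higher and 12 lower over all genes, and 0 members lower, 0 large, 0 small, 0 other TOP mRNAs higher and 0 mTORC1 genes higher. Leaving out one library, calls over all genes ran from 197 to 1692 higher and 40 to 2261 lower, members from 0 to 10 higher and 1 to 14 lower, large-subunit members from 0 to 5 and 0 to 7, small-subunit members from 0 to 5 and 1 to 7, other TOP mRNAs from 0 to 3 and 0 to 7, and mTORC1 genes from 2 to 4 and 0 to 3. The medians ran from -0.029 to 0.068 over members, -0.059 to 0.094 over the large and -0.054 to 0.034 over the small subunit.

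All genes called lower were 194 with no filter, 718 with median-of-ratios scaling, 1088 with the GC and length correction, 1394 with it and without DMSO 3 and 1096 with it on the principal transcript. Members called higher were 1 (RPS16, small subunit 1) with a pseudocount of 0.1, with a filter of 5 TPM in 3 libraries and with rescaling to all other genes. The share of calls over all genes that were higher was 72.7, 74.2 and 77.0% in these fits. Of the 82 members tested, 4 (large subunit 4) were called higher with the GC correction without DMSO 3 and 2 (large 1, small 1) with it on the principal transcript. Over all 12201 genes 51.1% and 53.5% of the calls in the latter fits were higher. Higher calls thus outnumbered the 1394 and 1096 lower ones, so the member counts are no excess over all genes. Members called lower were 1 with no filter or no variance trend, where the large subunit had 0. Over all genes the calls lower were 194 of 26597 and 285 of 12201 in these fits. The large subunit had 1 with pseudogenes added and 4 with the GC correction without DMSO 3. The small subunit had 2 with median-of-ratios scaling and 0 with the GC correction, with or without DMSO 3. Other TOP mRNAs called higher were 0 with no filter, median-of-ratios scaling or no variance trend, and 1 with the principal-transcript correction; those called lower were 1 with the 5 TPM filter, 2 with median-of-ratios scaling, 1 with rescaling without mitochondrial and small non-coding RNA, and 3 with the GC correction without DMSO 3. mTORC1 genes called lower were 1 with the GC correction and 2 with it without DMSO 3. The share of calls that were higher was 73.7%, against 58.0% with median-of-ratios scaling, 52.9% with the GC correction and 42.8% without DMSO 3.

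Medians with the GC correction were 0.052 for the small subunit; without DMSO 3 they were 0.131 over members, 0.106 large and 0.167 small, and on the principal transcript 0.086, 0.081 and 0.1. The members' share of TPM was 35.3% with penfluridol with pseudogenes added, and 36.03% with penfluridol and 35.06% with DMSO over protein-coding genes. Signs of genes not called turned under the GC correction, with it without DMSO 3 and on the principal transcript for RPL26 (0.331, 0.316, 0.346), RPL35 (-0.191, -0.112, -0.090), RPL39 (0.066, 0.078, 0.104) and RPS6 (0.183, 0.218, 0.188), under the first 2 for RPL5 (0.082, 0.058), under the first for FAU (-0.034) and RACK1 (-0.014), under the second for RPS27 (-0.034), and on the principal transcript for RPL10 (-0.016) and RPLP2 (-0.125). With 1 library left out, RPL11 ran from -0.468 to 0.058 (positive without penfluridol 1), RPL22 from -0.152 to 0.218 (-0.014 without penfluridol 1, -0.152 without DMSO 3), RPL26 from -0.375 to 0.085 (positive without DMSO 2) and RPL35 from -0.063 to 0.213 (-0.063 without penfluridol 1, -0.026 without DMSO 1). The cause of these changes was not tested. The depth is unknown, so what it limits cannot be stated.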
